A study of Rattus norvegicus with 16 samples.

Results

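The CCN family of matricellular proteins was followed through single-cell RNA sequencing of rat lumbar intervertebral discs (IVD). Its members were taken by name and not by any measured value: Ctgf, Cyr61, Nov, Wisp1, Wisp2 and Wisp3, the symbols the deposited values use for Ccn2, Ccn1, Ccn3, Ccn4, Ccn5 and Ccn6. The choice of the family was made with earlier results of these data known. All 6 were found among 14930 genes listed in at least 1 group, and all 6 were among the 13596 genes listed in each of the 4 groups. The animals were 8 male Sprague-Dawley rats, operated on at 8 weeks of age. In each rat a pair of lumbar discs was punctured once with a needle (LDP, lumbar disc puncture) and the pair of discs above them was left unpunctured (CON). Rats 1 to 4 were studied 2 weeks and rats 5 to 8 were studied 8 weeks after surgery. The 2 punctured discs of a rat were pooled into 1 library, and so were its 2 unpunctured discs, so that 16 libraries made 4 groups of 4. The labels give no allele or drug that differed between groups. The controls were neighbouring discs of an injured animal and not discs of an unoperated one. The punctured discs were the lower pair in every rat, so puncture and spinal level cannot be told apart in comparing LDP with CON. Cells were released by a warm enzymatic digestion before capture, and what that step added to the level of genes that respond quickly was not tested.

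CCN proteins are secreted, cysteine-rich modular proteins of the extracellular matrix. They carry modules related to IGF-binding proteins, von Willebrand factor and thrombospondin, most carry a cystine-knot module at the C-terminus, and they act by binding integrins, heparan sulfate proteoglycans and low-density lipoprotein receptor-related proteins and by holding growth factors. Ctgf is a widely used readout of TGF-beta and of the Hippo effectors YAP and TAZ, and in the disc it is known for promoting aggrecan and collagen synthesis. Cyr61 is an immediate early gene and a YAP/TEAD target known for cell adhesion and vessel growth. Nov is known in cartilage and disc for opposing Ctgf, Wisp1 was found as a Wnt-induced gene and is known in bone and tendon, Wisp2 lacks the C-terminal module, and loss of WISP3 in people causes a degenerative cartilage disease.

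The promoters of Ctgf and Cyr61 are shown because these members are the ones used as readouts of YAP and TEAD. The windows hold the 250 bases before the start of each gene in RefSeq (build GRCr8), read 5′ to 3′ on the strand of the gene, with matches to the TEAD core in capitals.
Ctgf (Ccn2), chr1:22624615-22624864, minus strand: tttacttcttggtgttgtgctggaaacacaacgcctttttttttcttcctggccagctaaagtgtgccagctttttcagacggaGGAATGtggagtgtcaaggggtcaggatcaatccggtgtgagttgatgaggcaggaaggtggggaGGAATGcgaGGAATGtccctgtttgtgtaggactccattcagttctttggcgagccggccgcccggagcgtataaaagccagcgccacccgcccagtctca
Cyr61 (Ccn1), chr2:237225690-237225939, minus strand: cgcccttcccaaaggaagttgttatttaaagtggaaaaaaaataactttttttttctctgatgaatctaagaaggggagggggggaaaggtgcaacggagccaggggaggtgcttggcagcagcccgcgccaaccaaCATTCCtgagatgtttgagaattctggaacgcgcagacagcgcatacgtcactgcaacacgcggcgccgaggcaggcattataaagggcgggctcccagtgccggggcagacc
The TEAD core was searched as CATTCC on both strands, that is also as GGAATG. It stood 3 times in the Ctgf window, at 166 to 161, 101 to 96 and 92 to 87 bases before the start, each as GGAATG, and once in the Cyr61 window, at 113 to 108 bases before it. Among 33469 RefSeq promoter windows of the same length, 12.1% held the core at least once, 0.902% at least 2 times and 0.0807% (27 windows) at least 3 times. The window of Wisp3 (Ccn6) held no match. The AP-1 site TGANTCA (6.34% of all windows) and the SMAD element GTCTAGAC (0.173% of all windows) matched in none of the 3 windows. These letters describe the windows and say nothing of which factor was bound. The table of RefSeq promoters matched 3 of the 6 members. Nov, Wisp1 and Wisp2 were not matched.

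The 16 libraries held 149272 cells, 2221 to 15918 each, with a median of 3860.0 to 8090.0 UMIs (unique molecular identifiers, 1 per captured RNA molecule) per cell. The authors clustered each of the 4 groups apart and named the clusters IVD, endothelial, myeloid or lymphoid cells; cells without a class name were kept apart. In 2-week discs the IVD cells carried subcluster numbers only. Nucleus pulposus (NP), inner annulus (IAF) and outer annulus (OAF) were assigned to them from Acan, Cd24 and S100b, which were higher in NP than in IAF in 4 of 4 libraries of each group, although for Acan the gap was small, 0.089 to 0.41 on the log2 scale in CON and 0.033 to 0.19 in LDP. OAF cells carried the outer annulus markers (Igfbp5, Igfbp6, Lum, Myoc, Fibin, Scx, Tnmd and Mkx), whose summed level ran from 10529.8 to 15584 CPM (counts of a gene scaled to the same total in every cell) in OAF cells of CON and from 434 to 767 CPM in NP cells. OAF was therefore well set apart, and the split of NP from IAF was not. NP cells were also deeper than IAF cells in every library. Their median was 7000 to 8544.5 UMIs against 2440 to 3788 UMIs in IAF cells of CON. In LDP it was 7890 to 10580 against 4100 to 6405 UMIs. The part of depth in any difference between NP and IAF cells was not tested. By Acan, Cd24 and S100b subcluster number 2 is IAF in CON and NP in LDP. Genes of the annulus go against that naming in LDP. Col1a1, the fibrillar collagen chain of the annulus, was higher in IAF (3203 to 8469 CPM) than in NP cells (2630 to 4715 CPM) in 4 of 4 libraries of CON, but lower in IAF (1634 to 2474 CPM) than in NP cells (1896 to 4021 CPM) in 4 of 4 libraries of LDP. Lum and Igfbp6 were higher in IAF in 4 of 4 libraries of CON and lower in rats 2 to 4 of LDP, and Col2a1 was higher in IAF in 3 of 4 libraries of LDP. Each comparison of LDP with CON in NP or IAF cells may therefore set unlike cells side by side. For Nov and Cyr61 a comparison of subclusters of the same number is also reported. Shares, marker sums, gene lists and differences between subclusters are given under these names only. Any 2 libraries shared 0 to 75 cell barcodes, at most 0.720% of the smaller one. Levels below are the mean CPM over the cells of a class in 1 library. They were counted at the 3′ end, so levels of one member are compared between cells and groups but not with those of another member.

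The family divided by cell type rather than moving as one. The order of the levels across the classes is a description, because the classes were drawn from the same cells and genes. Nov marked the outer annulus. In CON at 2 weeks its level in OAF cells of rats 1 to 4 was 1285, 1223, 1094 and 1498 CPM, in IAF cells 86.1, 140.0, 117 and 114 CPM and in NP cells 55.4, 69.4, 61.5 and 70.0 CPM. No library of one of these subclusters reached the range of another. The log2 ratio of OAF to NP within a library averaged 4.29 (range 4.12 to 4.51) and that of NP to IAF −0.81 (range −1.002 to −0.63). Endothelial cells followed at 30.7 to 39.6 CPM, with no overlap with NP cells, and myeloid cells lay at 0 to 56.1 CPM, a range that overlapped both. Cells without a class name held 225 to 298 CPM, between the OAF and the IAF ranges.

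Wisp1 and Wisp2 were also highest in OAF cells, without the step of Nov from IAF to NP. Wisp1 in OAF cells of CON was 20.3, 31.7, 24.9 and 15.1 CPM, above every IAF library (3.66 to 6.19 CPM) and every NP library (3.54 to 5.77 CPM), which overlapped each other. Wisp2 in OAF cells was 101, 129, 121 and 53.6 CPM, against 21.7 to 37.3 CPM in NP and 19.0 to 30.3 CPM in IAF cells, which also overlapped. The log2 ratio of OAF to NP averaged 2.09 (range 1.77 to 2.49) for Wisp1 and 1.73 (range 0.78 to 2.21) for Wisp2. Endothelial cells held 0.350 to 1.71 CPM of Wisp1 and 1.22 to 6.44 CPM of Wisp2, below every library of the disc subclusters.

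Wisp3 ran the other way and belonged to the NP and IAF cells. Its level in CON was 38.4, 53.9, 60.7 and 63.2 CPM in NP cells, 41.9, 43.7, 53.9 and 76.2 CPM in IAF cells and 4.40, 7.36, 7.96 and 12.8 CPM in OAF cells. NP and IAF overlapped, and OAF lay below both in every library, at a log2 ratio to NP of −2.64 (range −2.87 to −2.21). Endothelial (1.12 to 7.28 CPM) and myeloid cells (0 to 3.53 CPM) lay near or below the OAF range.

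Ctgf and Cyr61 varied several-fold between animals in NP and IAF cells, and in CON only Ctgf kept an order, lowest in OAF cells. Ctgf in NP cells of CON was 1779, 6079.7, 1929 and 922 CPM and in IAF cells 1634, 5403, 2010.4 and 1029.7 CPM, with rat 2 the highest and rat 4 the lowest in both. OAF cells ran from 722 to 962 CPM, at a log2 ratio to NP of −1.37 (range −2.66 to −0.12). Within a library Ctgf was lower in OAF than in NP and IAF cells in 4 of 4 libraries of CON and of LDP. Endothelial cells (462 to 662 CPM) lay below every OAF library, and myeloid cells (85.0 to 155 CPM) below every endothelial one. Cyr61 in NP cells of CON was 272, 945, 349 and 93.1 CPM and spanned the levels of OAF cells (263 to 384 CPM) and of endothelial cells (218 to 303 CPM). The log2 ratio of OAF to NP for Cyr61 ran from below to above 0, 0.10 (range −1.84 to 2.03), so no order among the disc subclusters held in CON. In LDP the values of both Cyr61 and Nov were ordered otherwise. No test of such a change passed after adjustment, as given below, and the NP and IAF names are in doubt in LDP. Cyr61 was higher in OAF than in NP cells (log2 ratio 0.81 to 2.38) and than in IAF cells (0.52 to 1.90) in 4 of 4 libraries, and the ratio of NP to IAF for Nov averaged 0.042, above 0 in 2 of 4.

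**Figure D1:**
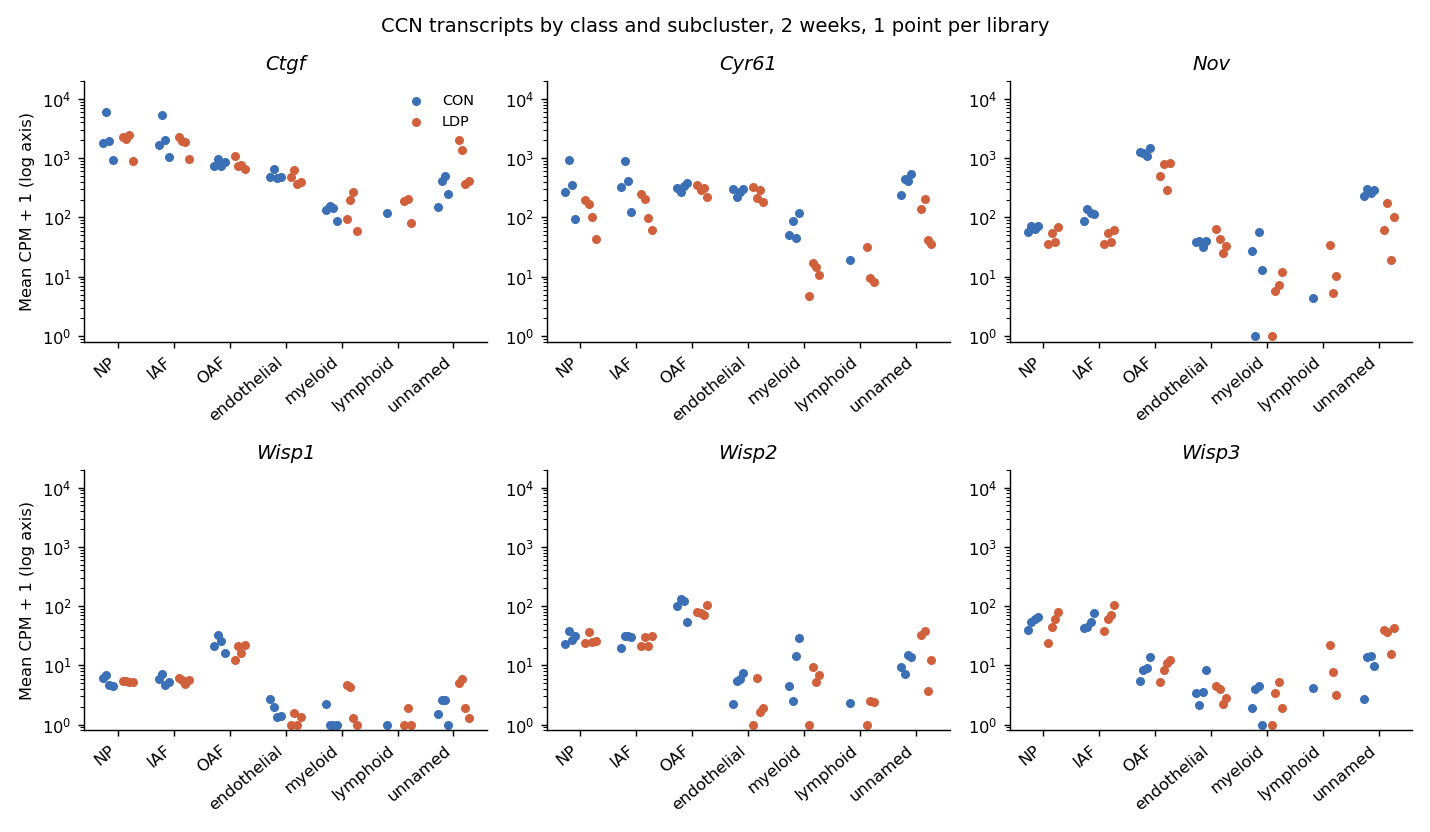
Mean CPM + 1 (log axis) of each member in the classes of 2-week discs, 1 point per library, CON in blue and LDP in orange. Nov, Wisp1 and Wisp2 were highest in OAF cells. Wisp3 was lowest there among the disc subclusters, and so was Ctgf within each library. The points of Ctgf and Cyr61 in NP and IAF cells spread over several-fold ranges.

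Because the classes differ in size, the share of the summed CPM of all IVD cells that OAF cells held shows where each transcript came from. OAF cells were 9.28% to 14.6% of the IVD cells of CON and 6.29% to 16.4% of those of LDP at 2 weeks. In CON they held on average 66.2% of the Nov signal (range 54.4% to 74.8%, n = 4 libraries), 39.6% of Wisp1 and 32.3% of Wisp2, all above their share of the cells. They held 14.4% of Cyr61, 5.47% of Ctgf and 1.87% of Wisp3. In LDP the shares were 59.2% for Nov, 33.3% for Wisp1, 28.7% for Wisp2, 25.4% for Cyr61, 6.03% for Ctgf and 1.86% for Wisp3. A difference of Nov between whole IVD libraries therefore weighs the OAF cells most.

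**Figure D2:**
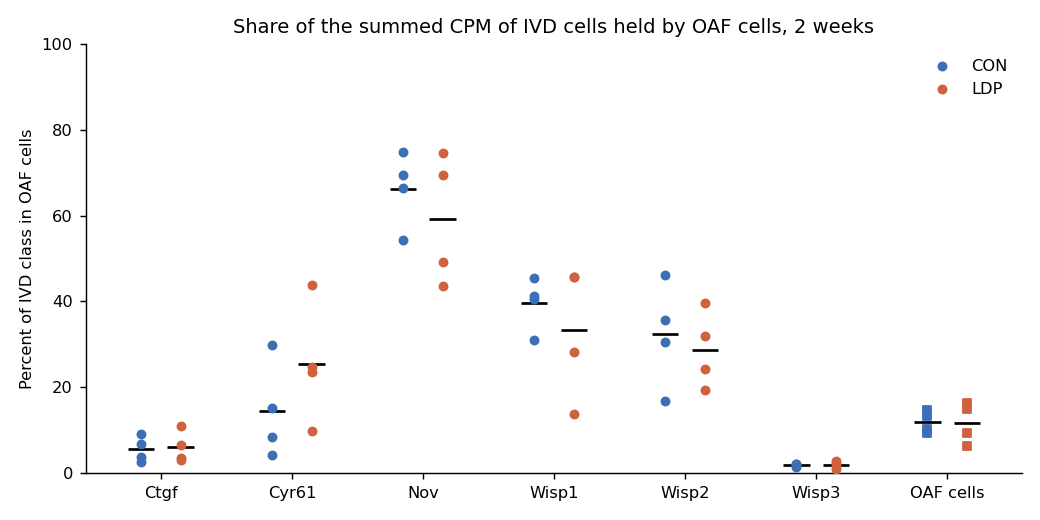
Percent of the summed CPM of IVD cells held by OAF cells for each member at 2 weeks, 1 point per library and the mean as a bar, with the percent of IVD cells that were OAF cells as squares. Nov averaged 66.2% in CON, far above the OAF share of cells, and Wisp3 averaged 1.87%, below it.

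The genes closest to each member were read over 24 means of 2-week discs, NP, IAF and OAF cells in 8 libraries, by Pearson's r of log2(mean CPM + 1) over 12372 genes. The 24 means come 3 from each library and share the NP, IAF and OAF contrast, so r is a description. Among the genes closest to Nov were Pdlim2 (r = 0.983) and Loxl1 (0.981), an elastin cross-linking enzyme. Cyr61 ran closest to Klf6 (0.968), an immediate early transcription factor, Arrdc3 (0.912) and F3 (0.912), tissue factor. For Ctgf the nearest were Errfi1 (0.916), a feedback inhibitor of the EGF receptor, Actg1 (0.914), a cytoskeletal actin, and Btg2 (0.909), an immediate early antiproliferative gene. Rat 2 of CON stood high for Ctgf, Cyr61 and some of these genes. In its IVD cells Klf6 was 146 CPM against 39.2 to 71.4 CPM in the other CON libraries of 2 weeks. Btg2 was 3490 against 636 to 996 CPM. No r was computed without rat 2. Wisp1 ran with Parp10, Rab31 and Tc2n (0.971, 0.970 and 0.967), and Wisp2 with Ube2q2l, Fam89b and Oxa1l (0.955, 0.948 and 0.946). Wisp3 ran closest to Snorc (0.960), a cartilage proteoglycan, Ift57 (0.960) and Ptges3l (0.957). Within the family Nov, Wisp1 and Wisp2 ran together (r from 0.917 to 0.940 between pairs), Wisp3 ran against all of these (−0.896 to −0.852), and Ctgf and Cyr61, both YAP/TEAD targets, reached 0.378 with each other.

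Outside the disc cells, the signal of disc matrix genes bounds what can be read. Whether it came from free RNA, droplets with 2 cells or misnamed cells was not tested. The level of a member in a class was set against its level in IVD cells of the same library, beside the matrix genes Comp, Col2a1 and Acan, which endothelial and blood cells do not make in quantity. Over 12 libraries with endothelial cells, their median level was 7.33% of that in IVD cells for Comp, 7.42% for Col2a1 and 5.66% for Acan. The same figure was 97.1% for Cyr61, 27.4% for Nov and 20.8% for Ctgf, above the matrix genes, but 6.97% for Wisp1, 5.85% for Wisp2 and 5.73% for Wisp3, at their level. The matrix genes are not matched to Nov, most of which lay in OAF cells. In CON the mean log2 ratio of OAF to NP was −3.40 for Acan, −2.23 for Col2a1 and −0.30 for Comp. The summed outer annulus markers were 143 to 357 CPM in endothelial and 1866 to 3102 CPM in IVD cells of CON at 2 weeks. In LDP at 8 weeks they were 150.0 to 1293 and 402 to 869 CPM. The part of outer annulus RNA in the endothelial level of Nov was not tested. In myeloid cells (15 libraries) the median was 5.31% for Ctgf, 7.93% for Cyr61 and 3.55% for Nov beside 7.89% for Comp. In lymphoid cells (11 libraries) it was 5.99%, 5.83% and 4.64%, below Comp (6.53%) and above Col2a1 (4.49%) and Acan (4.43%). In myeloid cells Wisp1 and Wisp3 had medians of 0% and 2.53%, and Wisp2 had a median of 10.96%, above Comp, with libraries from 0% to 113%. In lymphoid cells Wisp1, Wisp2 and Wisp3 had medians of 0%, 3.67% and 3.64%. In myeloid cells Col2a1 and Acan had medians of 7.45% and 6.59%, so that Cyr61 lay slightly above all 3 matrix genes. Apart from Wisp2 in myeloid cells, no median of a member stood clearly above the span of the 3 matrix genes in these classes, and none of the levels there is read as expression. Cyr61 in myeloid cells of CON at 2 weeks is taken up below. At 8 weeks endothelial cells were named in LDP only, where they held 144 to 222 CPM of Cyr61, 30.9 to 53.4 CPM of Nov and 59.0 to 492 CPM of Ctgf, the last with rat 6 far below the other three. Those cells held 206 to 1399.5 CPM of pericyte and smooth muscle markers. At 2 weeks endothelial cells held 21.5 to 80.6 CPM in CON and 103 to 215 CPM in LDP. The endothelial level of Nov was 31.1% to 70.6% of that in IVD cells in LDP at 8 weeks. At 2 weeks it was 15.2% to 17.3% in CON and 17.5% to 97.1% in LDP. Over the 12 libraries Cyr61 ran from 25.8% to 242%.

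The main comparison of the design, LDP against CON, was first made in all IVD cells. At 2 weeks Nov and Cyr61 were lower in the punctured discs of every rat, and the other 4 members showed no shared direction. Nov was 249.9, 235, 187 and 229 CPM in CON of rats 1 to 4 and 63.9, 177, 61.4 and 179 CPM in LDP. The groups did not overlap, and rats 1 and 3 were the lowest of LDP. Cyr61 was 306, 846, 378 and 131 CPM in CON and 227, 203, 118 and 76.6 CPM in LDP. These ranges overlapped, since rats differed several-fold in both groups and rat 4 was the lowest in each. On the log2(mean CPM + 1) scale, limma with the rat as block gave a difference of −1.08 (standard error 0.26, 95% interval −1.65 to −0.50) for Nov and −1.23 (standard error 0.24, 95% interval −1.76 to −0.71) for Cyr61. Neither passed after Benjamini-Hochberg adjustment over 11572 genes (limma adjusted p = 0.162 and 0.0873), so 0 of 6 members were called beside 0.181% of all genes (21 genes). Each passed in 1 of 15 alternatives, DESeq2 with the same block (DESeq2 adjusted p = 0.0274 for Nov and 0.000414 for Cyr61). That fit called 181 genes higher and 104 lower. At an unadjusted p under 0.05, 2 of 6 members and 1331 of 11572 genes were counted.

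Ctgf at 2 weeks was 1552, 5282, 1860.5 and 949 CPM in CON and 2205, 1827, 2019 and 889.7 CPM in LDP. Rat 2, the highest control, differed most, and rats 1 and 3 lay higher in LDP. The difference was −0.25 with an interval of −1.03 to 0.53, which holds differences of either sign. Wisp1 differed by −0.13 (−0.47 to 0.21), Wisp2 by −0.21 (−0.73 to 0.31) and Wisp3 by 0.034 (−0.29 to 0.36) on the log2 scale. The intervals of these 3 members did not reach a log2 difference of 1 in either direction. The median over the 6 members was −0.23 beside −0.083 over all genes tested.

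At 8 weeks Nov was again lower in LDP in every rat, and Cyr61 was lower in 3 of 4 rats by a small margin. Nov was 137, 108, 124 and 206 CPM in CON of rats 5 to 8 and 99.4, 55.4, 80.5 and 81.4 CPM in LDP, lower in 4 of 4 rats and without overlap. The difference was −0.84 (standard error 0.26, 95% interval −1.41 to −0.26), with a limma adjusted p of 0.139. Cyr61 was 368, 227, 354 and 221 CPM in CON and 367, 182, 290.3 and 278 CPM in LDP, a difference of −0.069 (standard error 0.24, 95% interval −0.59 to 0.46). Ctgf was 2450.0, 2137, 6472 and 2333 CPM in CON, where rat 7 stood far above the others, and 5033, 2219.7, 2761 and 2452 CPM in LDP, where rat 5 was the highest. Its difference was −0.016 (−0.80 to 0.77), and those of Wisp1, Wisp2 and Wisp3 were 0.0086, −0.19 and 0.0072. None of the 6 was called, beside 0.259% of all genes (30 genes). The median of all genes was itself −0.16 at 8 weeks and the median of the members −0.043. With TMM scaling in edgeR the median of all genes moved to −0.022, and Cyr61 and Ctgf then lay at 0.096 and 0.11 while Nov stayed below 0.

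**Figure D3:**
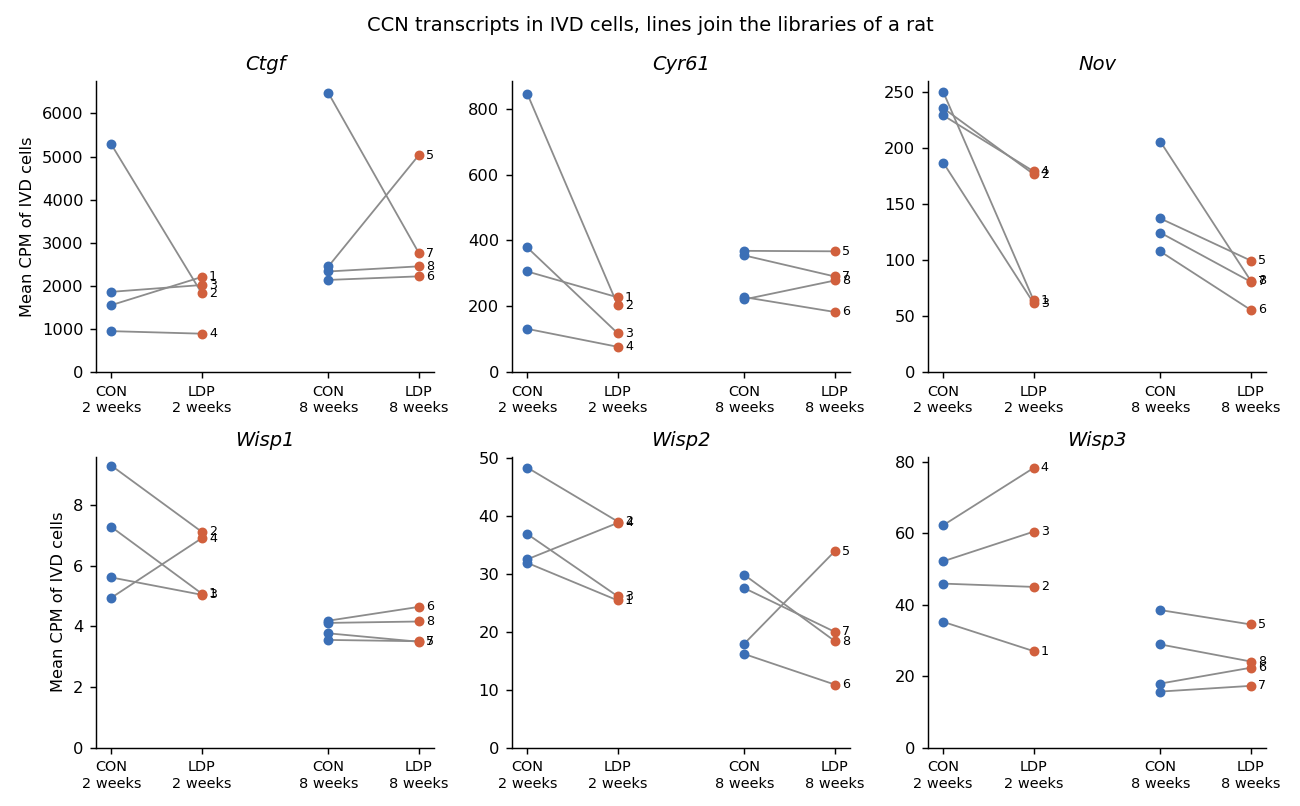
Mean CPM of each member in IVD cells at 2 and 8 weeks, with a line for each rat from its CON to its LDP library. Nov was lower in LDP in 8 of 8 rats and Cyr61 in 4 of 4 rats at 2 weeks, while Ctgf, Wisp1, Wisp2 and Wisp3 show no common direction.

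When both times were fitted as one mean effect, Nov and Cyr61 passed. The mean difference of the 8 rats was −0.96 (standard error 0.18, 95% interval −1.36 to −0.55) for Nov (limma adjusted p = 0.0210, lower in 8 of 8 rats) and −0.65 (standard error 0.17, 95% interval −1.02 to −0.28) for Cyr61 (limma adjusted p = 0.0449, lower in 7 of 8 rats). This made 2 of 6 members called, both lower, beside 7.44% of genes called in either direction and 5.46% called lower, with 229 genes higher and 632 lower. The split of all genes depended on the scaling, 449 higher and 381 lower with TMM in edgeR, where Nov was called and Cyr61 was not (edgeR adjusted p = 0.0828). Without the rat block the adjusted p of Cyr61 was 0.168. Leaving out rat 3, 6 or 7 gave Nov an adjusted p of 0.0569, 0.0616 and 0.0523, and Cyr61 passed only without rat 1 or rat 4, at 0.0603 to 0.115 without each of the other 6 rats. The median of all genes was −0.12, and the values of Ctgf, Wisp1, Wisp2 and Wisp3 were −0.13, −0.059, −0.20 and 0.021. For Cyr61 the difference between the times was 1.16 (0.42 to 1.91), with a limma p of 0.00567 and an adjusted p of 1.00 among 11572 genes, of which 0% were called and 206 had a p under 0.05. For Nov it was 0.24 (−0.57 to 1.05). The 8-week effect was thus not shown to differ from the 2-week effect for either gene.

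When all cells of a library were averaged, other classes included, the differences of Nov were close to these and that of Cyr61 at 8 weeks changed sign. Nov lay at −1.18 at 2 weeks and −0.85 at 8 weeks, and Cyr61 at −1.29 and 0.16 (limma adjusted p from 0.361 to 0.857 over these 4 values). No member was called at either time, beside 0% of all genes at 2 weeks and 0.0082% at 8 weeks. At 2 weeks 1119 of 12199 genes had an unadjusted p under 0.05.

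Markers of several cell types moved in the IVD cells beside Nov, first those of the outer annulus. Their summed level in IVD cells was 1866 to 3102 CPM in CON and 1099 to 1954 CPM in LDP at 2 weeks (lower in 3 of 4 rats, 7 of 8 genes lower) and 904 to 1650.3 and 402 to 869 CPM at 8 weeks (lower in 4 of 4 rats, 8 of 8 genes). None of the 8 was at 0 in any library. The endothelial markers ran from 195 to 393 CPM in CON and from 90.7 to 222 CPM in LDP at 2 weeks (lower in 2 of 4 rats) and from 105 to 124 and from 66.3 to 95.5 CPM at 8 weeks (lower in 4 of 4 rats), 6 of 7 genes lower at each time. The summed NP markers were higher in 4 of 4 rats at both times, although single genes were split (4 of 7 higher at 2 weeks and 5 of 7 at 8 weeks), 896 to 1362 and 1099.7 to 1627 CPM at 2 weeks and 972 to 1200.4 and 1162 to 1314 CPM at 8 weeks. Pericyte and smooth muscle markers were higher in 3 of 4 rats at 2 weeks (37.2 to 153 and 93.9 to 135 CPM, 6 of 6 genes higher). Of the lymphoid markers 6 of 6 were higher at 2 weeks and 6 of 6 lower at 8 weeks, with the sum lower in 2 of 4 rats each time. Of the erythroid and granulocyte markers 5 of 5 listed were higher at 2 weeks, with the sum lower in 1 of 4 rats. The part of all these markers in the differences of the members was not tested. Fewer OAF cells among the cells captured and less Nov per cell cannot be told apart in the IVD averages at 8 weeks, where no subclusters were given. Without OAF cells the 2-week difference was −0.84 for Nov (limma adjusted p = 0.273) and −1.44 for Cyr61 (0.268).

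The share of IVD cells with at least 1 UMI of a member was compared after each cell was thinned to 1000 UMIs, since depth differed between libraries. At 2 weeks a UMI of Nov was found in 9.46%, 9.57%, 10.5% and 9.41% of the cells of CON in rats 1 to 4, and in 4.15%, 8.70%, 4.01% and 8.31% of those of LDP. Every LDP library lay below every CON library. In lymphoid cells of LDP, which should lack Nov, the share was 0.568% in rat 3 and 0.745% in rat 4 (median UMIs per cell before thinning 1321 and 1862.5, against 4227 to 9884 in IVD cells over the 16 libraries). A UMI of Cyr61 was found in 19.98%, 35.9%, 26.5% and 10.1% of the cells of CON and in 15.6%, 14.5%, 8.97% and 6.05% of those of LDP, lower in 4 of 4 rats. With 4 rats a two-sided exact sign-flip permutation test cannot go below p = 0.13, which both genes reached. The p-values of shares are not adjusted and stand for 6 members tested at each time. At 8 weeks the mean share for Nov was 7.50% in CON and 5.55% in LDP, lower in 4 of 4 rats at the same smallest p. Over all 8 rats, a comparison added after the values were seen, the mean share of Nov was 8.62% in CON and 5.92% in LDP, lower in 8 of 8 rats (exact sign-flip permutation p = 0.00781, the smallest 8 rats can give). For Cyr61 it was 20.9% and 14.3%, lower in 7 of 8 rats (exact permutation p = 0.0312 at 1000, 0.0625 at 500 and 0.250 with all UMIs), and with 6 members tested no call is made from it. Without thinning the Nov shares were 25.6% and 20.3% at 2 weeks and 23.8% in both groups at 8 weeks, where the median UMIs of a library ran from 4670.0 to 7567 in CON and from 6209 to 8090.0 in LDP. The 8-week difference in share was therefore seen only after thinning. For Ctgf the thinned shares at 2 weeks averaged 55.6% in CON and 46.6% in LDP (lower in 3 of 4 rats, exact p = 0.250), and those of Wisp1, Wisp2 and Wisp3 averaged 0.688%, 3.37% and 4.36% in CON and 0.590%, 2.98% and 4.72% in LDP.

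Within the subclusters of 2-week discs, Nov passed the test in OAF and IAF cells and Cyr61 in none of the 3. In OAF cells Nov was 1285, 1223, 1094 and 1498 CPM in CON of rats 1 to 4 and 499, 805, 289 and 829.8 CPM in LDP. All LDP libraries lay below all CON libraries, with rat 3 the lowest. Nov fell by 1.18 on the log2 scale (standard error 0.20, interval −1.64 to −0.73), that is 2.27-fold, in 4 of 4 rats (limma adjusted p = 0.0191). It was the 1 of 6 members called, beside 1.47% of 11667 genes called in either direction and 0.146% called lower (17 genes). The call did not hold in every setting. Without rat 1 or rat 3 the limma adjusted p was 0.0778 and 0.0957, without the block 0.0646 and with TMM in edgeR 0.0620, where the difference was −0.94 without rat 3 and −1.07 with TMM. Its adjusted p ran from 0.0168 to 0.0957 over 9 alternatives and passed in 5.

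In the same OAF cells Cyr61 was 318, 263, 344 and 384 CPM in CON and 356, 290.3, 314 and 224 CPM in LDP, overlapping throughout, with a difference of −0.15 (standard error 0.17, 95% interval −0.54 to 0.24). Ctgf was 723, 962, 722 and 846 CPM in CON and 1089.6, 730.0, 776 and 648 CPM in LDP, a difference of −0.021 (−0.42 to 0.38). Wisp1 was 20.3, 31.7, 24.9 and 15.1 CPM in CON and 11.1, 19.9, 15.3 and 21.0 CPM in LDP, lower in 3 of 4 rats at −0.42 (−0.95 to 0.11, limma adjusted p = 0.546). Wisp2, at 68.4 to 102 CPM in LDP, differed by −0.26 (−0.85 to 0.34), lower in 3 of 4 rats. Without rat 4, the one rat in which it was higher, Wisp2 passed (limma adjusted p = 0.0347). With 4 rats no member other than Nov was called in OAF cells.

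In the cells named IAF, a name that Col1a1, Lum and Igfbp6 go against in LDP, both genes had lower values in LDP, and Nov was called. Nov was 86.1, 140.0, 117 and 114 CPM in CON and 34.9, 52.9, 38.2 and 60.9 CPM in LDP, without overlap. Its difference was −1.29 (standard error 0.18, 95% interval −1.69 to −0.88) with a limma adjusted p of 0.0491, the 1 of 6 members called beside 0.138% of 10854 genes, 0.12% lower. That p stands at the threshold, ran from 0.00727 to 0.404 over 11 alternatives and passed in 2 of them, and without rat 1, 2 or 3 it was 0.106, 0.404 and 0.153. When NP and IAF cells were joined the difference was −0.84 (adjusted p = 0.273), and when the subclusters numbered 2 were compared in both groups it was called together with Cyr61 (−1.66, adjusted p = 0.0479). The subclusters numbered 2 differed in depth, with medians of 2440 to 3788 UMIs in CON and 7890 to 10580 UMIs in LDP. The part of depth in these 2 calls was not tested. Cyr61 in IAF cells was 325, 897, 405 and 120.0 CPM in CON and 249, 202, 95.4 and 59.4 CPM in LDP, lower in 4 of 4 rats at −1.40 (standard error 0.29, 95% interval −2.06 to −0.74) (limma adjusted p = 0.127). Wisp3 was 41.9, 43.7, 53.9 and 76.2 CPM in CON and 37.2, 59.3, 70.0 and 101 CPM in LDP, a difference of 0.26 (−0.15 to 0.67).

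In NP cells Cyr61 was also lower in LDP, and the step of Nov was smaller in value but was not shown to differ from those in IAF and OAF cells. Cyr61 was 272, 945, 349 and 93.1 CPM in CON and 198, 165, 100.4 and 42.2 CPM in LDP, lower in 4 of 4 rats at −1.47 (standard error 0.31, 95% interval −2.19 to −0.75). Nov was 55.4, 69.4, 61.5 and 70.0 CPM in CON and 34.6, 54.1, 38.0 and 67.8 CPM in LDP, a difference of −0.44 (standard error 0.16, 95% interval −0.81 to −0.06), with rat 4 nearly level. Between subclusters numbered 1 in both groups the values were −1.21 for Cyr61 and −0.48 for Nov (limma adjusted p = 0.318 and 0.353). Those numbered 1 had medians of 7000 to 8544.5 UMIs in CON and 4100 to 6405 UMIs in LDP. With the naming by markers neither was called (limma adjusted p = 0.233 and 0.451), beside 0% of 10811 genes, of which 1078 had an unadjusted p under 0.05. Ctgf differed by −0.21 (−0.92 to 0.51), with the largest gap again in rat 2.

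**Figure D4:**
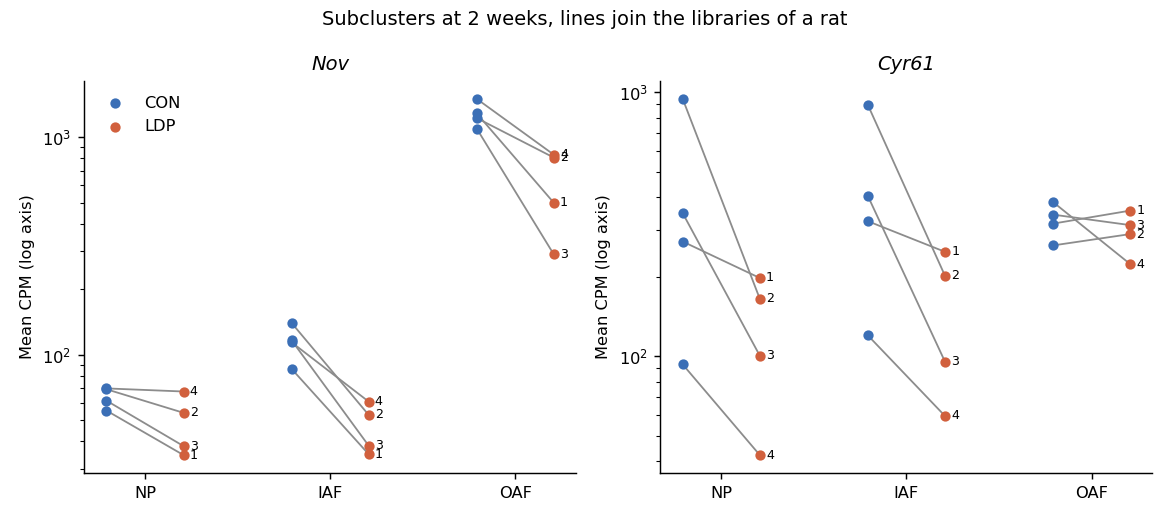
Mean CPM (log axis) of Nov and Cyr61 in NP, IAF and OAF cells at 2 weeks, with a line for each rat from its CON to its LDP library. Nov was lower in LDP in 4 of 4 rats in all 3 subclusters, and Cyr61 in 4 of 4 rats in NP and IAF cells and in 2 of 4 rats in OAF cells.

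The differences between subclusters were tested on the per-rat values by limma. The injury effect on Cyr61 was higher in OAF than in NP cells by 1.32 (standard error 0.37, 95% interval 0.43 to 2.20) and than in IAF cells by 1.25 (standard error 0.37, 95% interval 0.36 to 2.14), at limma adjusted p of 0.130 and 0.149. That on Nov was lower in OAF than in NP cells by 0.75 (difference −0.75, interval −1.18 to −0.31, limma adjusted p = 0.103) and lay at 0.10 (−0.41 to 0.61) for OAF minus IAF. For IAF minus NP it was −0.85 (standard error 0.10, 95% interval −1.10 to −0.60), with a limma adjusted p of 0.266. No member passed in these 3 comparisons, beside 0.969%, 1.03% and 0% of all genes for OAF minus NP, OAF minus IAF and IAF minus NP. In the last of these 1247 of 10655 genes had an unadjusted p under 0.05. The effects on Cyr61 and Nov in the subclusters are therefore given as values and were not shown to differ.

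**Figure D5:**
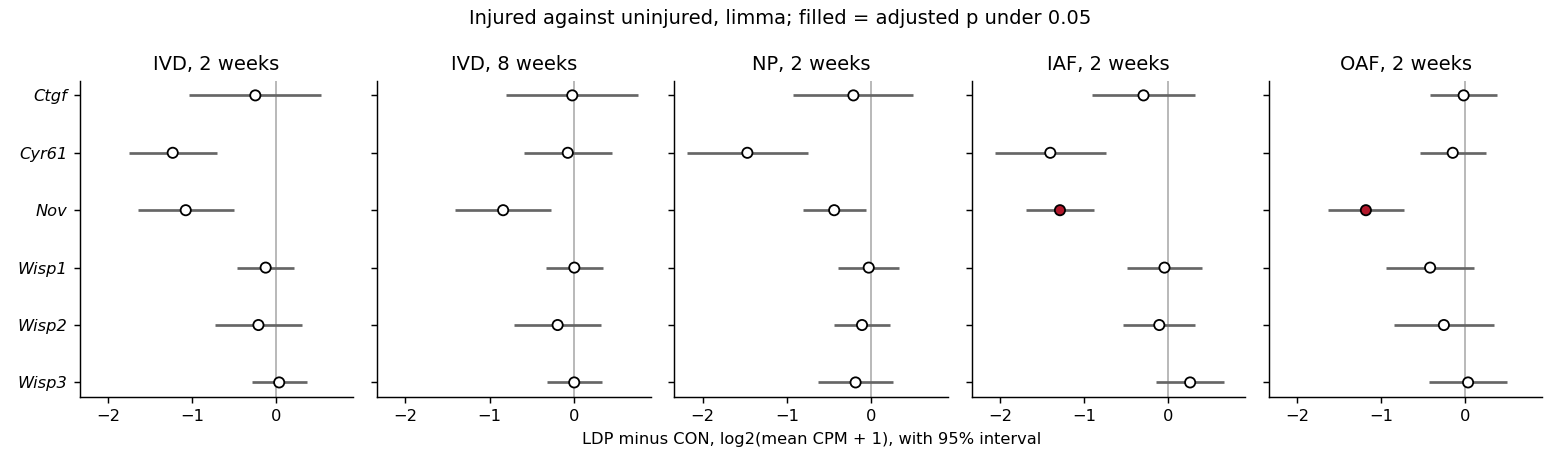
Log2 differences of LDP minus CON from limma with 95% intervals for the 6 members in IVD cells at 2 and 8 weeks and in NP, IAF and OAF cells at 2 weeks, with filled points where the adjusted p was under 0.05. Nov lies below 0 in all 5 comparisons and is filled in IAF and OAF cells, and Cyr61 lies below −1 in IVD, NP and IAF cells at 2 weeks.

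Markers of other cells moved with these groups as well. In IAF cells the summed outer annulus markers ran from 925 to 1418 CPM in CON and from 336 to 533 CPM in LDP. They were lower in 4 of 4 rats with 8 of 8 genes lower, a mean log2 difference of the sum of −1.32 beside −1.29 for Nov. The endothelial markers ran from 88.7 to 539.5 and from 46.6 to 80.7 CPM, 7 of 7 genes lower. Pericyte and smooth muscle markers ran from 38.7 to 246 CPM in CON and from 37.9 to 50.3 CPM in LDP, lower in 3 of 4 rats with 5 of 6 genes lower. In NP cells the outer annulus markers ran from 434 to 767 CPM in CON and from 382 to 495 CPM in LDP (7 of 8 genes lower, 3 of 4 rats), a mean log2 difference of the sum of −0.48 beside −0.44 for Nov, and the endothelial markers from 41.3 to 90.7 and from 57.7 to 78.5 CPM (5 of 7 genes lower, 3 of 4 rats). Their part in the IAF and NP differences of the members was not tested. In OAF cells the outer annulus markers ran from 10529.8 to 15584 and from 8418 to 10876 CPM, 7 of 8 genes lower, a mean log2 difference of the sum of −0.53 beside −1.18 for Nov. The endothelial markers ran from 795 to 1106 and from 486 to 957 CPM (6 of 7 genes lower, 3 of 4 rats). Of the lymphoid markers 6 of 6 and of the myeloid markers 7 of 8 were higher. The part of these markers was not tested. Pericyte and smooth muscle markers ran from 14.5 to 49.6 CPM in CON and from 519 to 817 CPM in LDP (6 of 6 genes higher, none at 0). Leaving out every OAF cell with a UMI of 4 pericyte and smooth muscle genes (Rgs5, Myh11, Notch3 and Des) removed 3.96% to 6.61% of the OAF cells of CON and 10.4% to 13.3% of those of LDP. In the OAF cells that remained, Nov differed by −1.16 on average over rats (range −1.96 to −0.51, lower in 4 of 4), against −1.18 in all OAF cells. Sox10 and Mbp, genes of glial cells, were also higher in OAF cells of LDP, Sox10 at 0 to 0.12 CPM in CON and 2.89 to 13.6 CPM in LDP and Mbp at 0 to 3.04 and 16.7 to 98.7 CPM. When cells with a UMI of either were left out as well, 3.96% to 7.85% of the OAF cells of CON and 14.7% to 21.6% of those of LDP were removed and Nov differed by −1.10 (range −1.93 to −0.44). Leaving out cells with a UMI of Acta2 alone gave −1.21. In each case Nov was lower in 4 of 4 rats. Cells of other types in which no UMI of these genes was captured stayed in each subset, and their part was not tested.

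The thinned share of OAF cells with a UMI of Nov ran from 34.6% to 37.8% in CON and from 12.3% to 29.4% in LDP. In IAF cells it ran from 5.07% to 9.69% and from 3.00% to 5.38%, and in NP cells from 4.56% to 5.85% and from 2.77% to 4.88%. The groups did not overlap in OAF cells, and overlapped in IAF and NP cells. Median depth in OAF cells was 3254 to 7180.5 UMIs per library.

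In endothelial cells at 2 weeks no member separated CON from LDP past the adjusted threshold, beside 0% of 11224 genes called and 506 with an unadjusted p under 0.05. Nov was 38.1, 38.8, 30.7 and 39.6 CPM in CON and 62.1, 41.8, 24.1 and 31.4 CPM in LDP, a difference of 0.031 (−0.45 to 0.52). Cyr61 was 303, 218, 272 and 295 CPM in CON and 327, 212, 285 and 181 CPM in LDP, a difference of −0.14 (−0.49 to 0.20). The interval of Cyr61 in endothelial cells holds no halving, whereas in IVD cells the difference was −1.23; the difference between these classes was not tested. Ctgf differed by −0.19 (−0.48 to 0.10) and Wisp2, whose level relative to IVD cells was near that of the matrix genes, by −1.20 (limma adjusted p = 0.978). Wisp1 did not pass the limit on low values.

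In myeloid cells at 2 weeks Cyr61 was 48.8, 86.9, 43.3 and 119 CPM in CON and 3.66, 16.1, 13.4 and 9.84 CPM in LDP, without overlap, a difference of −2.72 (standard error 0.55, 95% interval −3.91 to −1.53). It was not called (limma adjusted p = 0.993), beside 0% of 10205 genes, 304 of which had an unadjusted p under 0.05. These are means of 25 to 369 cells per library. In CON the myeloid level of Cyr61 was 10.3% to 90.5% of that in IVD cells of the same library (median 13.7%) beside 9.27% to 14.7% for Comp, and in LDP 1.61% to 12.9% beside 6.95% to 14.2%. Only CON rat 4, with 25 myeloid cells, stood clearly above the matrix gene. At 8 weeks, with 3 pairs of libraries each, 4 members passed the limit on low values in myeloid cells (Ctgf, Cyr61, Nov and Wisp2) and 3 in lymphoid cells (Ctgf, Cyr61 and Nov). None was called, beside 1.72% of 9002 genes in myeloid and 0.0203% of 9857 genes in lymphoid cells.

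Between 8 and 2 weeks the uninjured IVD cells differed in 4 of 6 members. Nov fell by 0.68 on the log2 scale (interval −1.08 to −0.28, limma adjusted p = 0.0251), with 187 to 249.9 CPM at 2 and 108 to 206 CPM at 8 weeks. Wisp1 fell by 0.63 (−1.004 to −0.27, adjusted p = 0.0250), from 4.94 to 9.30 CPM at 2 weeks, with 3.55 to 4.19 CPM at 8 weeks. Wisp2 fell by 0.71 (−1.16 to −0.26, adjusted p = 0.0338) and Wisp3 fell by 0.98 (−1.56 to −0.40, adjusted p = 0.0265). Nov overlapped between the times in 1 library of 8 weeks (rat 8) and Wisp3 in 1 (rat 5), and Wisp1 and Wisp2 did not overlap. The 4 calls stand beside 19.3% of all genes called in either direction and 11.8% called lower, so that calls were common in this comparison. Leaving out 1 library at a time left 1 to 4 members called, 4 of them only without rat 8, and each of the 4 genes missed the threshold in 3 to 5 of 8 such fits, at limma adjusted p of at most 0.0894. Ctgf differed by 0.61 (−0.47 to 1.69) and Cyr61 by −0.24 (−1.23 to 0.74). In injured IVD cells Ctgf lay at 0.85, Cyr61 at 0.92, Nov at −0.44, Wisp1 at −0.50, Wisp2 at −0.69 and Wisp3 at −1.01 (limma adjusted p from 0.0971 to 0.520), and 0 of 6 were called beside 4.37% of all genes. Without LDP rat 1 Wisp3 passed (limma adjusted p = 0.0425). In the same uninjured IVD cells the summed outer annulus markers ran from 1866 to 3102 CPM at 2 weeks and from 904 to 1650.3 CPM at 8 weeks. The summed disc cell markers ran from 19557 to 28739 and from 9031 to 13591 CPM. The part of these markers in the differences of the members was not tested, and no subclusters were given at 8 weeks. Time since surgery, age, the animals, the preparation and the makeup of the IVD cells cannot be told apart in either comparison.

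The genes around the family were read by lists of its regulators and partners. At 2 weeks in IVD cells the immediate early genes, which share their fast transcription with Cyr61, were below 0 in 16 of 17 tested (median −0.63 beside −0.083 for all genes). Over all genes 64.1% were below 0 in this comparison. One immediate early gene was called lower, Klf6 (−1.10, adjusted p = 0.0415 by limma), and Egr1 (−1.43, adjusted p = 0.414), Egr2 (−1.26, adjusted p = 0.366) and Klf2 (−1.13, adjusted p = 0.209) were not called. The control library of rat 2 stood far above the others for part of this list. Egr1 was 152, 2160, 113 and 109.7 CPM in CON of rats 1 to 4 and 88.3, 90.8, 118 and 81.8 CPM in LDP. Without rat 2, a comparison added after the values were seen, the mean over rats was −0.38 for Egr1, −0.44 for Egr2, −1.05 for Klf2 and −0.92 for Klf6, with 15 of 17 genes below 0 and a median of −0.34. YAP/TAZ-TEAD targets other than the members were below 0 in 14 of 17 (median −0.30, none called), led by F3 (−0.96, adjusted p = 0.0969). Of the Hippo pathway and TEAD components 13 of 15 were below 0, of the CCN receptors 8 of 10, of the TGF-beta ligands and early targets 7 of 10, of the MRTF-SRF targets 6 of 12 and of the Wnt targets 3 of 7, with none called in any of these lists, and shares such as 7 of 10 lie near that of all genes. At 8 weeks no gene of the 7 lists was called.

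With both times together, several partners were called, beside 7.44% of all genes in either direction and 5.46% lower. Of the receptors, 3 of 10 fell and none rose: Itgav (−0.82, adjusted p = 0.0284), an integrin alpha chain of CCN receptors, Lrp1 (−0.48, adjusted p = 0.0246), a receptor of Ctgf, and Fgfr2 (−0.49, adjusted p = 0.0433). Of the TGF-beta list, 2 of 10 fell, Ltbp2 (−0.97, adjusted p = 0.0346), a latent TGF-beta binding protein of microfibrils, and Tgfb3 (−0.62, adjusted p = 0.0132). Of the YAP/TAZ-TEAD targets 3 of 17 fell, among them F3 (−0.71, adjusted p = 0.0217), and 1 rose (Asap1, 0.48, adjusted p = 0.0152, named after its value was seen), with a list median of −0.34 beside −0.12 for all genes. Of the immediate early genes 4 of 17 fell and none rose (median −0.50), among them Klf2 (−0.86, adjusted p = 0.0418). In the Hippo list 1 of 15 was called, Sav1 (−0.36, adjusted p = 0.0287), a share near that of all genes. Of the Wnt targets Apcdd1 (−0.63, adjusted p = 0.0152) and Nkd1 (−0.38, adjusted p = 0.0451), both feedback inhibitors, fell (2 of 7). No MRTF-SRF target was called. These p-values are from limma over all 11572 genes, and the lists were drawn up with earlier results of these data known. The calls are given without TMM scaling, and with TMM in edgeR 381 genes were called lower in place of 632. Most outer annulus markers were also lower in these IVD cells (7 of 8 genes at 2 weeks and 8 of 8 at 8 weeks). Their part in the calls was not tested.

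Within OAF cells the lists took another shape than Nov. The MRTF-SRF targets, genes of the contractile cytoskeleton, rose in 5 of 12 (median 0.64 beside −0.089 for all genes), beside 155 of 11667 genes called higher, led by Acta2 (4.49, adjusted p = 2.92e-05), Tagln (4.30, adjusted p = 6.23e-05), Cnn1 (2.70, adjusted p = 0.000513) and Myl9 (2.70, adjusted p = 4.88e-05). Acta2 and Tagln are also pericyte and smooth muscle markers, which were higher in these cells as given above. In all cells at 2 weeks 11 of 12 MRTF-SRF targets were below 0 (median −0.35, 0 called). In cells without a class name the pericyte and smooth muscle markers ran from 2859 to 6363 CPM in CON and from 45.1 to 747 CPM in LDP. CON and LDP were clustered apart, and whether such cells were placed with OAF cells in LDP was not tested. The immediate early genes were below 0 in 10 of 17 (median −0.035) beside 63.2% of all genes, with 1 called higher, Ier3 (0.85, adjusted p = 0.0246). Among the YAP/TAZ-TEAD targets Gadd45a rose (0.92, adjusted p = 0.00777), and among the receptors Notch1, a binding partner of Nov, rose (1.16, adjusted p = 0.00777), each the single call of its list. The part of the pericyte, smooth muscle and glial genes that were higher in these cells was not tested for any of these rises. In IAF and NP cells the immediate early genes were below 0 in 15 of 16 each, beside 66.4% and 54.7% of all genes (medians −0.87 and −0.86 beside −0.14 and −0.030), none called, with rat 2 included in both. Ltbp2 fell in IAF cells (−2.00, adjusted p = 0.0491).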

How the data were processed

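The report used 16 libraries of 10x Genomics 3′ single-cell RNA sequencing from 8 rats. Per the labels, the authors processed reads in Partek Flow against rat build rn6, filtered cells, clustered each group by K-means and named clusters from marker genes. The gene values deposited by the authors are log2(CPM + 1) of each cell. The total per cell, an expected count summed by the authors over listed genes, returned whole UMIs for 99.4% of values above 0 within 0.02. The percent of mitochondrial reads per cell was deposited by the authors as well, and it was used only as a measure of quality.

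The CPM of cells was averaged per class and library. Fits used limma 3.58.1 (R 4.3.3) on log2(mean CPM + 1), with rat as block, for genes at a mean of at least 1 CPM in at least 4 libraries, and Benjamini-Hochberg adjustment over all genes tested at 0.05. edgeR 4.0.16 and DESeq2 1.42.0 on summed recovered counts were alternatives. Libraries of a rat are paired by animal. In IVD cells deviations from the group means correlated at −0.18 to 0.45 between libraries of a rat (5 of 8 over 0.1), in OAF cells at −0.13 to 0.094 (0 of 4). Shares used cells thinned to 1000 UMIs and exact sign-flip permutation tests. Genes other than the members were named by rule, up to 4 of largest difference per list and 3 by correlation, with exceptions stated. A few genes that these rules and marker lists named, and the results that need them, are not reported here. The members and lists were chosen with earlier results of these data known. Scripts were tested on simulated data. How doublets and free RNA were handled is not given in the sources used here.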

Additional observations from a re-analysis of the deposited data

Results flagged for a closer look

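Among 60 groups of 4 libraries tested for a value far from the other three, 4 stood out, where chance gives about 1 in 20. Wisp2 in IAF cells of CON at 2 weeks was 18.95 CPM in rat 1 against 29.1 to 30.3 CPM in the others. Wisp2 in NP cells of LDP at 2 weeks was 35.2 CPM in rat 2 against 23.0 to 24.5 CPM. Ctgf in NP cells of LDP at 2 weeks was 883 CPM in rat 4 against 2120.3 to 2493 CPM, and Ctgf in IVD cells of CON at 8 weeks was 6472 CPM in rat 7 against 2137 to 2450.0 CPM.

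Cells that carried no class name were a group of their own in the description of levels and entered comparisons of LDP with CON only within the averages over all cells of a library. In some LDP libraries they held more of a member than in any CON library of the same time. At 2 weeks Ctgf was 2041 CPM in rat 1 and 1396 CPM in rat 2 (147 to 498 CPM in CON), Wisp2 was 37.0 CPM in rat 2 (6.13 to 13.7 CPM in CON), and Wisp3 was 36.1 CPM in rat 2 and 41.3 CPM in rat 4 (1.76 to 13.3 CPM in CON). At 8 weeks Cyr61 was 588 CPM in rat 6 (125 to 231 CPM in CON). These cells were not alike in the groups. At 2 weeks their summed disc cell markers ran from 2179 to 5357 CPM in CON and from 6432 to 21497 CPM in LDP, their pericyte and smooth muscle markers from 2859 to 6363 and from 45.1 to 747 CPM, and LDP rat 1 held 23 of them. At 8 weeks their summed endothelial markers ran from 2341 to 5530 CPM in CON, where no endothelial class was named, and from 94.6 to 415 CPM in LDP. At that time LDP rat 6 held Mbp, a glial gene, at 1235 CPM (3.55 to 22.7 CPM in CON) and Fos at 2379 CPM (414 to 1565 CPM in CON). The part of this makeup in the values was not tested.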

How the results depend on the processing

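Of 538 log2 differences of members under the alternatives, 442 kept their direction and side of the threshold, 41 lost and 6 gained a call, and 49 reversed, 6 of these for Nov or Cyr61. All 90 log2 differences of Nov were below 0. The pairing rests on the animal. Without the replicate block the members called went from 1 to 0 in OAF and in IAF cells and from 2 to 1 over both times. The block changed no other count of members called. The genes called fell from 21 to 10 (IVD cells, 2 weeks) and from 15 to 5 (IAF cells). They rose in OAF cells, from 155 higher and 17 lower to 171 and 10. They also rose in IVD cells at 8 weeks (13 and 17 to 8 and 27) and over both times (229 and 632 to 221 and 689). The edgeR fit with TMM called 1 gene in NP cells, 0 genes and 0 members in IAF cells, 0 members in OAF cells and 1 member over both times, where 449 genes were higher and 381 lower against 229 and 632. DESeq2 called 2 members (Nov and Cyr61) and 285 genes at 2 weeks, 565 genes at 8 weeks and 1812 genes over both times. In the fit of IVD cells at 2 weeks 3 genes were called with pseudocount 10, 12 with a limit of 10 CPM, 0 with edgeR without TMM, 0 without OAF cells and 0 with the 8 libraries of 2 weeks alone. At 8 weeks 81 genes were called with pseudocount 0.1, and 132 genes and 1 member (Nov, limma adjusted p = 0.0454) with the 8 libraries of that time alone. In NP cells 1 gene was called with pseudocount 10 and 1 with the subclusters numbered 1. In IAF cells 0 members and 0 genes were called with pseudocount 0.1, with pseudocount 10, without a limit on low values or with NP cells joined, and 2 members and 50 genes with the subclusters numbered 2. Those numbered 2 differed in depth between CON and LDP, as given above.

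Leaving out a rat or library gave 0 to 7 genes (IVD cells, 2 weeks), 1 to 8 genes (8 weeks), 0 to 39 genes and 0 to 1 members (IAF cells), 70 to 244 genes and 0 to 2 members (OAF cells), 162 to 772 genes and 0 to 2 members (both times), 1102 to 2455 genes and 1 to 4 members (8 against 2 weeks, CON) and 138 to 1448 genes and 0 to 1 members (LDP).

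Reversed log2 differences were all of members that were not called. In IVD cells at 2 weeks Wisp3 was −0.017 with CPM of summed UMIs and −0.018 with edgeR without TMM. At 8 weeks Ctgf was 0.11 and 0.13 and Cyr61 0.096 and 0.11 with TMM and DESeq2, Wisp2 0.0079 with DESeq2, and Wisp3 −0.0036 with pseudocount 10 and −0.13 with both summed UMIs and edgeR without TMM. In NP cells Wisp1 was 0.023 with TMM and 0.019 with the subclusters numbered 1, and Wisp3 0.24 with those and 0.034 with IAF cells joined. In IAF cells Wisp1 was 0.23 and Wisp2 0.097 with TMM, and Wisp3 −0.16 with the subclusters numbered 2. In OAF cells Ctgf was 0.014 with TMM. Over both times Wisp1 was 0.13 with TMM, 0.017 without TMM and 0.14 with DESeq2, Wisp3 was −0.075 without TMM and Ctgf was 0.00061 with DESeq2. Leaving out a rat gave Ctgf −0.50 to 0.18 and Wisp3 −0.063 to 0.17 (IVD cells, 2 weeks); Ctgf −0.37 to 0.39, Cyr61 −0.20 to 0.013, Wisp1 −0.029 to 0.040 and Wisp3 −0.091 to 0.093 (8 weeks); Ctgf −0.40 to 0.23 and Wisp1 −0.10 to 0.063 (NP cells); Ctgf −0.54 to 0.092, Wisp1 −0.087 to 0.055 and Wisp2 −0.17 to 0.040 (IAF cells). It gave Ctgf −0.23 to 0.10, Cyr61 −0.26 to 0.058 and Wisp3 −0.063 to 0.091 in OAF cells, Ctgf −0.31 to 0.081 and Wisp3 −0.029 to 0.088 over both times, and Cyr61 −0.69 to 0.20 for 8 against 2 weeks in CON.

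For the shares of IVD cells (percentage points, LDP minus CON), thinning to 500 UMIs reversed Wisp1 (0.0021) and Wisp2 (0.0052) at 2 weeks and Wisp1 (−0.032) at 8 weeks. All UMIs gave Ctgf 0.25, Cyr61 2.35, Nov 0.072, Wisp2 0.95 and Wisp3 1.58 at 8 weeks and, over both times, Nov −2.60, Wisp1 0.28 and Wisp2 0.14. Leaving out a rat gave Ctgf −6.53 to 4.30, Wisp2 −0.58 to 0.27 and Wisp3 −0.22 to 0.022 at 8 weeks, and Nov −2.97 to −2.15, Wisp1 −0.052 to 0.016 and Wisp3 −0.045 to 0.27 over both times. The cause of these changes was not tested. With 4 rats per time, differences under a factor set by the spread between rats could not be shown for Ctgf and Cyr61. Wisp1 lay at a mean below 10 CPM in IVD cells, and the part of depth in its values was not tested.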
